A study of Mus musculus with 1600 samples.

Results

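Cartilage matrix is made from a small set of secreted proteins, and 10 of their genes were followed here in single cells of the embryonic mouse limb: Col2a1, Col9a1, Col9a2, Col9a3, Col11a1, Acan, Hapln1, Matn1, Matn4 and Mia1. The genes were chosen by symbol, and all 10 had a row among the 22092 gene symbols of the deposited count table. The cells came from hind limbs of C57BL/6 embryos carrying the SCX-GFP transgene, and there were 120 cells of E10.5, 160 of E12.5 and 200 of E15.5. All 3 groups carry the transgene, a fluorescent reporter named for the tendon transcription factor scleraxis, and the labels describe no sorting on it and no animals without it. Limbs of siblings from one litter were combined before dissociation, and cells were captured on a Fluidigm C1 microfluidic chip. Each stage is therefore 1 sample with no biological replicate, so differences between stages carry no test.

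The fibrils of cartilage are built mainly of type II collagen, a trimer of Col2a1 chains, with type XI collagen, to which Col11a1 contributes a chain, at their core. Type IX collagen, assembled from one chain each of Col9a1, Col9a2 and Col9a3, decorates the fibril surface. The space between fibrils is filled by aggrecan, the large proteoglycan encoded by Acan, which is held on hyaluronan by the link protein Hapln1. Matrilins (Matn1, Matn4) are adaptor proteins of the matrix, and Mia1 (Mia in current annotation) is a small protein secreted by chondrocytes. Chondrocytes arise from limb bud mesenchyme under the transcription factor Sox9 and its partners Sox5 and Sox6.

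Cells with at least 1000 detected genes were kept, which left 119, 158 and 200 cells with medians of 272198, 250709 and 192228 counts per cell in order of stage. The cells had been processed in 12 library pools of 40 cells: pools 1 to 3 held E10.5, pools 4 to 7 E12.5 and pools 8 to 12 E15.5. The same 40 cell barcodes served in all 12 pools, and no pair of barcode and pool index was shared. Pools are a technical split of 1 sample, and they cannot stand for animals. A level is given in CPM, the count per 1e6 counts, of the counts summed over the cells of a stage, with a 95% exact Poisson interval; shares of cells have exact Clopper-Pearson intervals, and both cover counting error only. The limb genes went against 1 label: at E10.5 the hind limb gene Pitx1 had 0 counts and the fore limb gene Tbx5 stood at 67.9 CPM in 87 of 119 cells, whereas Pitx1 stood at 169 CPM at E12.5 and 68.7 CPM in E15.5 cells and Tbx5 at 0.739 and 6.32 CPM. Every comparison with the cells labelled E10.5 may thus set one limb type against another as well as one stage against another, and these cannot be told apart.

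The 10 genes together held 0.0130% of all counts in E10.5 cells (129.6 CPM, interval 125.8 to 133.5), 0.0880% at E12.5 (879.5 CPM, 871.0 to 888.2) and 0.174% in E15.5 cells (1741 CPM, 1729 to 1753). Few cells carried most of this RNA: at E15.5, 8 of 200 cells held 50% of it, and 15 of 158 did so at E12.5. A gene was called higher when the log2 ratio of CPM, with 5 CPM added, was at least 1 and every pool of the later stage lay above every pool of the earlier one. By this rule 5 of 10 genes were higher at E12.5 than at E10.5, Col2a1, Col9a1, Col9a2, Col9a3 and Col11a1, against 7.76% of the 13125 genes tested. No member was called higher in E15.5 than in E12.5 cells, where the background was 2.99%, although all 10 log2 ratios were above 0, with a median of 1.13 against -0.04 over all genes tested. Without pool 6 the count was 3 (Col9a2, Col11a1 and Acan), and without pool 12 it was 1 (Acan). From E10.5 to E15.5 again 5 genes were called higher, Col2a1, Col9a2, Col9a3, Col11a1 and Acan, against a background of 11.2%; without pool 12 the count was 8, with Col9a1, Matn1 and Mia1 added. None of the 10 was called lower in any of the 3 comparisons, where 2.83%, 1.63% and 5.01% of genes were. Of all genes called between E10.5 and E12.5, 73.3% were higher, which became 58.8% (800 higher, 560 lower) with trimmed mean factors, and these moved the median of all genes from 0.17 to 0.04. Between E12.5 and E15.5 the share was 64.7%, or 75.1% (455 and 151) with a median of ratios. In bulk sums of this kind, more cells of a type and more RNA per cell cannot be told apart, and the shares of cells below speak to that only in part.

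**Figure D1:**
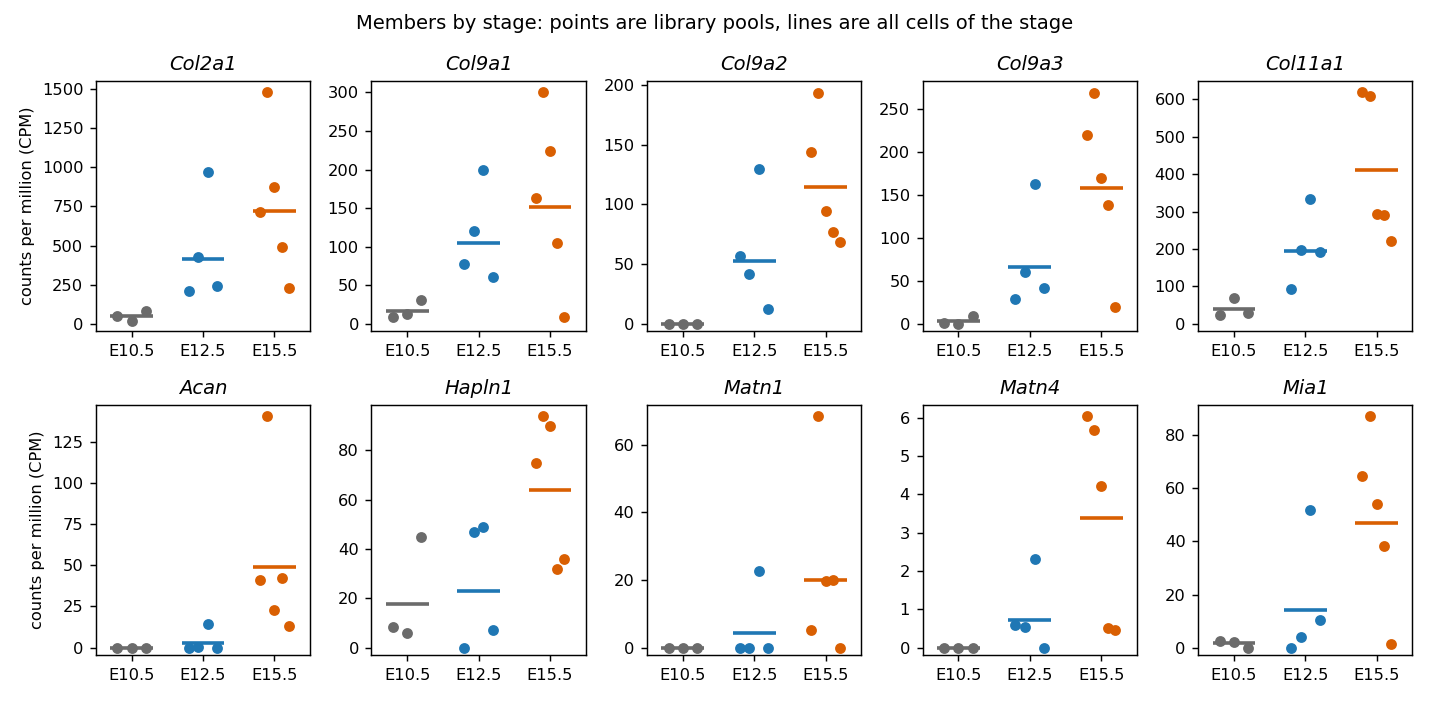
CPM of each gene (vertical axes, linear from 0, scales differ) at 3 stages. Points are the 3, 4 and 5 library pools and horizontal lines are all kept cells of the stage; at E12.5 pool 6 (the third of the 4 points) is the highest pool for all 10 genes, and at E15.5 pool 12 (the last point) is the lowest for all but Hapln1.

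The order of onset was read from cells thinned to 50000 counts each, which left out 4, 9 and 15 shallower cells, as the first stage at which at least 5% of cells held a count. Col2a1 (22.6% of cells, interval 15.3 to 31.3), Col11a1 (27.0%, 19.1 to 36.0), Col9a1 (10.4%, 5.51 to 17.5) and Hapln1 (6.09%, 2.48 to 12.1) reached it at E10.5. Col9a2 (26.2%, 19.3 to 34.0), Col9a3 (28.2%, 21.1 to 36.1) and Mia1 (9.40%, 5.23 to 15.3) followed at E12.5. Acan (20.5%, 15.0 to 27.1), Matn1 (7.57%, 4.1989 to 12.4) and Matn4 (6.49%, 3.40 to 11.1) came last, at E15.5. Pool 3 decided 2 of these onsets: without it Col9a1 and Hapln1 stood at 3.90% of E10.5 cells each, and both moved to E12.5. Without pool 8 Matn4 stood at 4.79% of E15.5 cells, and without pool 9 Matn1 stood at 4.70%, so that neither then reached 5% at any stage.

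Shares of cells with at least 1 count need a background. For this, cells with markers of another class (epithelial, muscle, endothelial, red or white blood) were used. Whether those cells lack the 10 genes was not tested. Among 10 cells of E15.5 with at least 3 endothelial markers, which had a median of 371080 counts, all 10 held Col2a1, but their highest value was 13 counts. Thinned, 5 of these 10 cells held Col2a1, 5 Col11a1, 2 each Col9a2, Col9a3 and Hapln1, 1 each Col9a1, Acan and Mia1, and none Matn1 or Matn4. Of the marker classes at E15.5 this one had the lowest maximum, and 1 of the 28 epithelial-marker cells had 4191 counts of Col2a1. Over the 5 classes together, 30 of 50 thinned E15.5 cells had a Col2a1 count. Of the E10.5 cells, 8 had markers of another class and carried 535 of the 1666 Col2a1 counts, with up to 246 in 1 cell, and 4 of them were among the 15 that had 10 counts or more. Leaving out all cells with markers of another class was an alternative added after seeing the data. The thinned Col2a1 shares were then 19.6%, 69.9% and 76.3% in order of stage, against 22.6%, 67.8% and 71.9% with them. Shares of cells with 10 or more Col2a1 counts were 9.91%, 57.0% and 42.2%, against 12.6%, 54.4% and 39.0%. The thinned shares of Col2a1 at E15.5 (71.9%) and Col11a1 (71.9%) were therefore set against 50% in the 10 endothelial-marker cells and not read as shares of expressing cells. At E15.5 Hapln1 (16.2%) lay below its 20% in those 10 cells, and Acan stood at 20.5% against 10%. The 20% of Hapln1 may not be background, because endothelial-marker cells of E10.5 had the gene at 245 CPM. There 4 of 5 such cells had 10 counts or more. Col9a1, Col9a2, Col9a3 and Mia1 stood at 10% or 20% there, above the 5% used for onset. The order of onset is thus an order of detection, with no such background taken off. An alternative also asked that a cell carry over 0.5% of its pool's counts of the gene. By it Col2a1 stood at 16.5%, 49.0% and 29.7% of thinned cells in order of stage. Hapln1 then stood at 4.35% of E10.5 cells and moved to E12.5, and the other onsets stayed. In what follows a cell is said to hold a gene when it had 10 or more counts of it; among the 10 endothelial-marker cells 3 did so for Col2a1, 3 for Col11a1 (up to 159 counts), 1 for Col9a2 and 1 for Hapln1. By that measure Col2a1 was held by 15 of the 119 E10.5 cells (12.6%), 86 of the 158 E12.5 cells (54.4%) and 78 of the 200 E15.5 cells (39.0%), and Col11a1 by 23 (19.3%), 81 (51.3%) and 103 (51.5%). The cut of 10 counts was not adjusted for depth, whose median was 250709 at E12.5 and 192228 at E15.5. At equal depth, 67.8% and then 71.9% of cells had 1 Col2a1 count or more, and 54.4% and then 45.4% had 3 or more.

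**Figure D2:**
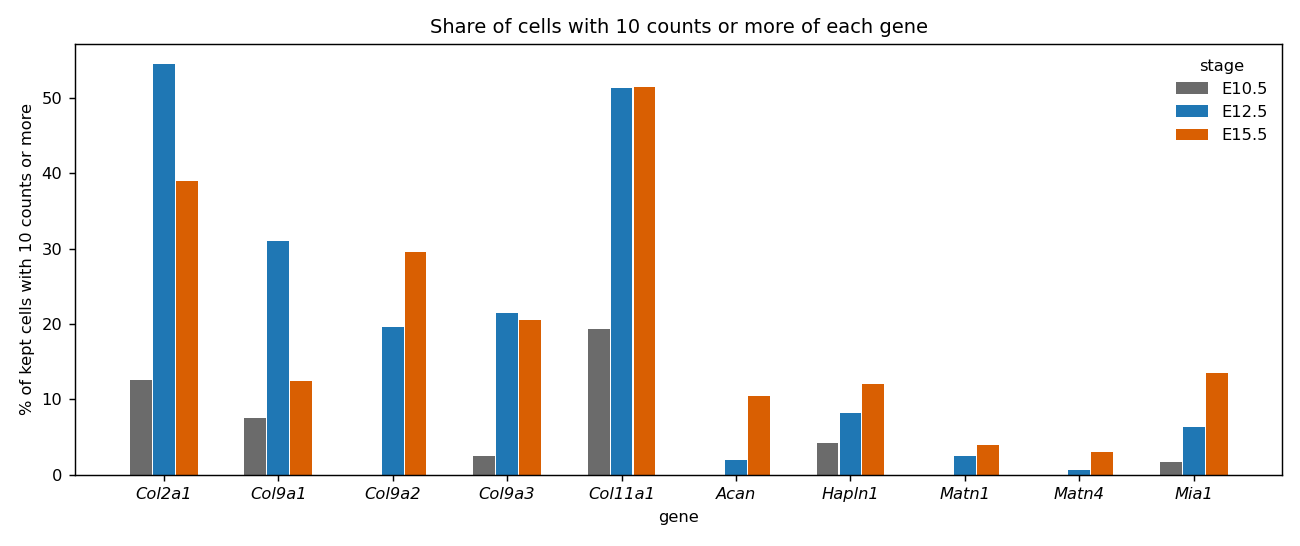
Percentage of kept cells (vertical axis) with 10 or more counts of each gene (horizontal axis) at the 3 stages, 119, 158 and 200 cells. Col9a1 has its tallest bar at E12.5 (31.0%) while Col9a2 has its tallest at E15.5 (29.5%), and Acan, Matn1 and Matn4 have bars below 3% before E15.5.

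Col2a1 (chromosome 15, 97975602 to 98004695, minus strand, GRCm38), the main fibrillar collagen of cartilage, stood at 49.4 CPM (47.0 to 51.8) in E10.5 cells, at 416 CPM (410 to 422) in E12.5 cells and, by E15.5, at 723 CPM (715 to 731). The pools gave 52.4, 20.9 and 80.4 CPM in E10.5 cells, then 208, 427, 968 and 244 CPM at E12.5 and 716, 1478, 872, 494 and 232 CPM in E15.5 cells. All 4 pools of E12.5 lay above the 3 of E10.5, while those of E12.5 and E15.5 overlapped widely. The level was 8.42-fold higher at E12.5 than at E10.5 (log2 ratio 2.95) and 1.74-fold that of E12.5 at E15.5 (log2 ratio 0.79, not called). The median among cells holding the gene was 314 CPM in E10.5 cells, 355 CPM at E12.5 and 535 CPM in E15.5 cells. Between the first 2 stages the share of cells holding Col2a1 thus differed more than the level in such cells did. Cells at 1000 CPM or more numbered 1, 24 and 31.

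Col11a1 (chromosome 3, 114030540 to 114220718, plus strand), a chain of type XI collagen, was the most widely held of the 10 at E10.5 and E15.5. Its pools stood at 23.8, 68.2 and 28.9 CPM in E10.5 cells, 94.4, 197, 333 and 192 CPM at E12.5 and 618.5, 609.5, 293, 290 and 221 CPM in E15.5 cells. The groups of E10.5 and E12.5 did not overlap and the level was 4.79-fold higher (log2 ratio 2.13). At E15.5 it was 2.11-fold that of E12.5 (log2 ratio 1.06), but pool 6 of E12.5 lay above 3 of the later pools, and without pool 6 the gene was called higher with a log2 ratio of 1.31. A single E12.5 cell of pool 4, with 25191 counts in all, held Col11a1 at 10162 CPM and no other member at 10 counts.

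At E10.5, 2 cells held both fibrillar genes, 13 Col2a1 alone and 21 Col11a1 alone. Col11a1 was thus held by 13.3% of the 15 cells with Col2a1 (1.66 to 40.5) and by 20.2% of the other 104, shares that this number of cells cannot separate. Of the 13 cells with Col2a1 alone, 4 had at least 3 markers of muscle, epithelial or endothelial cells. At E12.5 the figures were 54 with both, 32 with Col2a1 alone and 27 with Col11a1 alone, and at E15.5 they were 56, 22 and 47. Col1a1 was held by nearly all E15.5 cells: 47 of 47 with Col11a1 alone, 55 of 56 with both, 21 of 22 with Col2a1 alone and 72 of 75 with neither. Dcn, a connective tissue proteoglycan, was held by 34, 29, 8 and 38 cells of these sets, at 1303, 692, 468 and 765 CPM. Of the 47 cells with Col11a1 alone, 9 had at least 3 markers of muscle, epithelial or endothelial cells. So did 7 of the 56 with both, 6 of the 22 with Col2a1 alone and 24 of the 75 with neither. The part of such cells was not tested. The summed connective tissue markers stood at 5895 CPM in the 47 cells, at 4689 CPM in those with both collagens and at 3753 CPM in those with neither. Epithelial markers stood at 931 CPM in the 47 cells and 2155 CPM in those with neither, and white blood markers at 983 and 1418 CPM. Sox9 was held by 13 of these 47 cells and by 38 of the 56 with both, at 86.0 and 315 CPM. Summed over cells, Col11a1 counts per Col2a1 count were 0.825 in E10.5 cells, 0.469 at E12.5 and 0.568 in E15.5 cells (0.598, 0.340 and 0.412 per kb of exon sequence). The summed ratios differed by a factor of 1.21 from E12.5 to E15.5, whereas the median share of Col11a1 in cells with 20 or more counts of the pair went from 27.5% in 105 cells to 62.0% in 104. The pools of the summed ratio overlapped (0.344 to 0.787, then 0.336 to 0.94955). Without pool 6 the factor was 1.00, so pool 6 decides whether the summed ratios differ.

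Of the 3 chains of type IX collagen, Col9a1 alone reached the onset share at E10.5, and without pool 3 it did not. Col9a1 (chromosome 1, 24177610 to 24252684, plus strand) stood at 9.58, 13.3 and 31.5 CPM in the pools of E10.5, where Col9a2 (chromosome 4, 121039385 to 121055322, plus strand) had 0 counts. The exact 95% upper limits for Col9a2 there are 0.109 CPM and 3.16% of thinned cells. Col9a3 (chromosome 2, 180597790 to 180622189, plus strand) had 0.966, 0 and 8.99 CPM there, and 57 of its 98 counts came from 1 cell. Col9a2 was thus not detectable at the depth of the E10.5 cells, while 9 cells held Col9a1. Of these 9 cells, 1 held Col2a1 and 3 held Sox9, against 14 and 33 of the other 110. At E12.5 the pools gave 77.3, 120, 199 and 60.4 CPM for Col9a1, 56.8, 41.4, 130 and 12.3 CPM for Col9a2, and 29.4, 60.0, 162 and 41.3 CPM for Col9a3. Each of the 3 genes had every pool above those of E10.5, with levels 6.18-fold higher for Col9a1 and 22.6-fold higher for Col9a3. For Col9a2 the level was 594.3-fold that of an assumed 3 counts over the E10.5 cells, or 0.0889 CPM. This is below the exact upper limit of 0.109 CPM, so that fold is not a lower limit. Col9a3 shares part of its locus with Tcfl5 on the opposite strand, and because the strand setting of the counting is not given in the sources used here, reads of the pair cannot be told apart.

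RefSeq (GRCm38.p6) lists 2 transcription starts of Col9a1, well apart in the gene, and 1 of Col9a2. The 150 bases before each start are shown because Col9a1 and not Col9a2 had counts at E10.5. Those before the start of Acan are shown because it was among the last to reach the onset share. GC boxes (GGGCGG, either strand) are in capitals.
Col9a1 first start, chr1:24177460-24177609, plus strand: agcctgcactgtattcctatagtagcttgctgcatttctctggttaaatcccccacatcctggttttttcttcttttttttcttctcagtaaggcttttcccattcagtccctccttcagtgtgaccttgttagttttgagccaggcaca
Col9a1 second start, chr1:24195053-24195202, plus strand: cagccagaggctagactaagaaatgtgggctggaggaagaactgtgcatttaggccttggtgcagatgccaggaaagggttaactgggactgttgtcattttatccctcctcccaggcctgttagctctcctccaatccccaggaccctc
Col9a2, chr4:121039416-121039565, plus strand: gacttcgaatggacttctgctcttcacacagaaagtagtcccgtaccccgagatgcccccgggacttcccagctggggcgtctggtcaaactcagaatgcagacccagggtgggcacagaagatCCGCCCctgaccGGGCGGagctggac
Acan, chr7:79053076-79053225, plus strand: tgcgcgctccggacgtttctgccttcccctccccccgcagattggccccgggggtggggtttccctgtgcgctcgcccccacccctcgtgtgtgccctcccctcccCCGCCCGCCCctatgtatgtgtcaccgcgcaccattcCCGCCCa
In the full 250 bases before the start, Col9a2 had 2 GC boxes, at positions -26 to -21 and -14 to -9, Acan had 3, and neither start of Col9a1 had one. The G and C content was 43.6% and 56.0% before the first and second start of Col9a1, 60.4% for Col9a2 and 74.4% for Acan. A GC box was found in 32.7% of the 32851 promoter windows of RefSeq, so its presence is common. The SOX-like letters ACAAAG and ACAATG, searched on both strands, and TATAAA were in none of the 10 windows of the 8 members with an entry; 25.2% of all windows held one of the first pair and 12.4% the last. Promoters of Col2a1 and Col9a3 are not shown. The RefSeq starts of Col9a2 and Acan differ from the gene starts of the GENCODE annotation used for the gene coordinates.

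The balance between Col9a1 and Col9a2 differed between E12.5 and E15.5 in the number of cells holding each chain and, by less, in the summed counts. Col9a1 was held by 49 of 158 cells at E12.5 (31.0%) and by 25 of the 200 E15.5 cells, whereas Col9a2 was held by 31 (19.6%) and 59 (29.5%). By pool the counts of cells holding Col9a1 were 7, 14, 16 and 12 at E12.5 and 11, 5, 5, 3 and 1 in E15.5 cells. For Col9a2 they were 5, 10, 11 and 5 and then 14, 13, 12, 11 and 9. In all 4 pools of E12.5 more cells held Col9a1 than Col9a2, and in all 5 pools of E15.5 fewer did. The E15.5 pools of Col9a2 were 144, 194, 94.4, 77.1 and 68.3 CPM, against 52.8 CPM over all E12.5 cells (2.17-fold, log2 ratio 1.05, not called). Thinned to equal depth, the shares of cells with a count went from 43.6% to 21.1% for Col9a1 and from 26.2% to 44.3% for Col9a2. In the 10 endothelial-marker cells of E15.5 these shares were 10% and 20%. The level of Col9a1 did not follow its share: it was 105 CPM at E12.5 and 151 CPM in E15.5 cells (log2 ratio 0.50, not called), with pools of 163, 300, 224, 104 and 9.27 CPM at the later stage and 4 cells holding 50% of its counts at E15.5 against 11 at E12.5. Averaged over the cells' own CPM, or without the highest cell of each pool, that log2 ratio was -0.03 and -0.13.

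**Figure D3:**
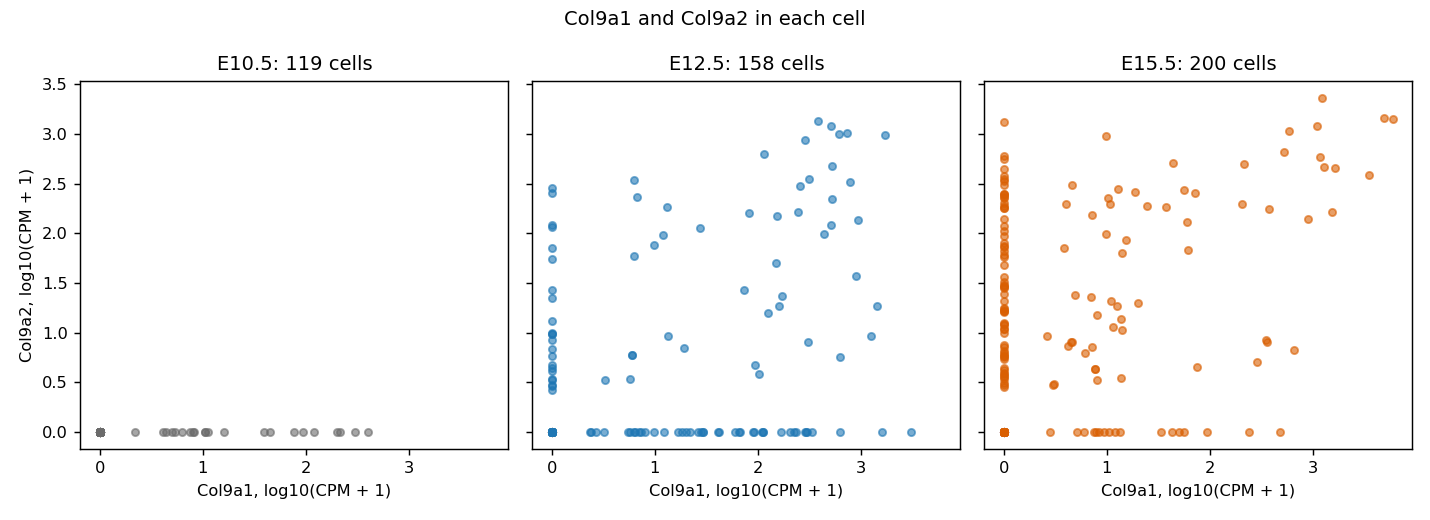
Each point is 1 cell; axes are log10(CPM + 1) of Col9a1 (horizontal) and Col9a2 (vertical) at the 3 stages. At E10.5 all points lie at Col9a2 of 0, at E12.5 many lie along the horizontal axis, and at E15.5 many lie along the vertical axis; with the 10 count threshold, 29 cells of E12.5 and 8 of E15.5 held Col9a1 alone, and 11 and 42 held Col9a2 alone.

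Cells with 20 or more counts of the pair showed the same shift in composition. Of 54 such cells at E12.5, 18 had counts of Col9a1 alone, 3 of Col9a2 alone and 33 of both, with a median Col9a1 share of 88.4%. Of 61 such cells at E15.5, 2 had Col9a1 alone, 21 Col9a2 alone and 38 both, and the median share was 7.79%. The summed counts gave 2.00 Col9a1 counts per Col9a2 count at E12.5 (1.90 to 2.10, 1.22 per kb) and 1.32 in E15.5 cells (1.27 to 1.36, 0.804 per kb), which differ by a factor of 0.659. Pool ratios were 1.36, 2.91, 1.53 and 4.93 at E12.5 and 1.14, 1.55, 2.38, 1.36 and 0.136 in E15.5 cells, so the pools of both stages overlapped. The low ratio of pool 12 came from 102 Col9a1 counts, with 1 cell holding Col9a1 against 9 holding Col9a2.

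The cells with Col9a2 alone differed from those with both chains in the rest of the matrix set. At E15.5, 17 cells held both chains, and all 17 held Col2a1 and Col9a3, 16 held Col11a1, 12 held Acan and 13 held Mia1. Of the 42 cells with Col9a2 alone, 21 held Col2a1, 13 Col9a3, 29 Col11a1, 4 Acan and 8 Mia1. The level of Col2a1 was 4374 CPM in the first set and 313 CPM in the second. Sox9 was held by 16 of the 17 cells and 21 of the 42, and Col1a1, the fibrillar collagen of bone and connective tissue, by 16 and 42, at 1816 and 3519 CPM. At E12.5 the 20 cells with both chains had Col2a1 at 2165 CPM, the 29 with Col9a1 alone at 284 CPM and the 11 with Col9a2 alone at 220 CPM. Those 29 cells included 2 with markers of another cell class and carried muscle markers at 4487 CPM in sum, and their median depth was 350607 counts against 223056 in the 20, all of whose part in the result was not tested. At E15.5, 4 of the 17 cells and 5 of the 42 had markers of another class.

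Col9a3 took a middle place. Its pools at E15.5 were 220, 269, 170, 138 and 19.1 CPM, and 41 cells held it, 30 of them with Col9a2 and 18 with Col9a1. Counts of Col9a3 per Col9a2 count were 1.24 at E12.5 and 1.38 in E15.5 cells (0.998 and 1.11 per kb), which differ less than their pools do (0.517 to 3.37 and 0.279 to 1.80). Counts of Col9a1 per Col9a3 count were 1.61 at E12.5 and 0.955 in E15.5 cells, with pools of 1.23 to 2.63 and 0.486 to 1.32 that overlapped. Per Col2a1 count, Col9a3 gave 0.158 at E12.5, with its 4 pools between 0.141 and 0.169. Those of Col9a1 (0.206 to 0.371) and Col9a2 (0.0502 to 0.273) spread more widely. The narrow spread of Col9a3 was not seen at E15.5, where its ratio was 0.219 and its pools ran from 0.0821 to 0.307. There the pools of Col9a1 ran from 0.0399 to 0.257 and those of Col9a2 from 0.108 to 0.294.

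Acan (chromosome 7, 79053483 to 79115099, plus strand) had 0 counts at E10.5. Its pools stood at 0, 0.179, 14.6 and 0 CPM at E12.5 and at 41.1, 141, 22.9, 42.5 and 12.9 CPM in E15.5 cells. Pool 6 thus gave nearly all of the E12.5 signal, from 3 cells, and it lay above 1 pool of E15.5. The level at E15.5 was 551-fold that of an assumed 3 counts at E10.5, which is not a lower limit. It was 17.5-fold that of E12.5 (log2 ratio 2.79, not called). Without pool 6 the log2 ratio to E12.5 was 3.42, without pool 12 it was 3.07, and in either case Acan was called higher. In all, 21 cells of E15.5 held Acan, and all 21 also held Col2a1, 20 held Col11a1, 17 held Col9a3 and 16 held Col9a2, but 12 held Col9a1.

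Hapln1 (chromosome 13, 89539796 to 89611652, plus strand), the link protein that fixes aggrecan to hyaluronan, did not follow Acan. It was not called in any comparison, and its log2 ratio between E10.5 and E12.5 (0.29) ranged from -0.17 to 1.20 as single pools were left out. At E10.5 it stood at 8.29, 5.87 and 44.9 CPM, and all but 10 of its counts lay in 8 cells with at least 3 markers of epithelial, muscle, endothelial or blood cells. Among them, 5 endothelial-marker cells had 528 counts, or 245 CPM, and 1 cell had 360. The other 111 cells of E10.5 had 10 counts of Hapln1, or 0.323 CPM. Without the marker-bearing cells, Hapln1 was present in 0.935% of thinned E10.5 cells, its onset moved to E12.5, and the gene was called higher in E15.5 than in E10.5 cells with a log2 ratio of 3.51. At E12.5 its pools stood at 0, 46.8, 49.0 and 7.27 CPM and at E15.5 at 74.9, 93.8, 89.9, 31.8 and 35.9 CPM, with overlap. Hapln1 counts per Acan count were 8.17 at E12.5 and 1.31 in E15.5 cells (10.3 and 1.66 per kb). Only 2 pools of E12.5 had Acan counts: pool 5 gave 261.5, from 2 Acan counts, and pool 6 gave 3.35, from 127. The E15.5 pools ran from 0.667 to 3.93, so pool 6 lay within their range. At E15.5, 24 cells held Hapln1 and 21 held Acan, of which 9 held both. The 5 cells with white blood cell markers at E15.5 had 410 Hapln1 counts among them and no cell with 10 counts of Acan.

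Matn1 (chromosome 4, 130944385 to 130955475, plus strand) was detected in 1 of 4 pools at E12.5, pool 6, at 22.8 CPM, and in 4 of 5 at E15.5, at 5.24, 68.5, 19.7, 20.0 and 0 CPM. There 8 cells held it, and all 8 also held Col2a1, Col11a1 and the 3 chains of type IX collagen, 7 held Hapln1 and Mia1, and 6 held Acan. Matn4 (chromosome 2, 164389393 to 164405160, minus strand) stayed low, at 33 counts at E12.5 and 156 in E15.5 cells, or 0.717 and 3.39 CPM, and 6 cells of E15.5 held it. Matn4 counts per Matn1 count were 0.167 at E12.5 and 0.169 in E15.5 cells. The E12.5 value rests on 33 Matn4 counts: pool 6 alone gave 0.101, and pools 4 and 5 added 7 and 6 without any Matn1. The pools of E15.5 ran from 0.0255 to 1.15. Matn4 overlaps Rbpjl on the opposite strand, and reads of the pair cannot be told apart without strand.

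Mia1 (chromosome 7, 27179742 to 27181157, minus strand) stood at 1.72 CPM in E10.5 cells, 14.0 CPM at E12.5 and 47.1 CPM in E15.5 cells. Its pools were 2.66, 2.13 and 0 CPM, then 0, 3.94, 51.7 and 10.455 CPM, then 64.6, 87.1, 54.0, 38.1 and 1.18 CPM. Pool 6 lay within the range of E15.5, and pool 12 below 3 of the 4 pools of E12.5, so no call was made. All 10 cells of E12.5 that held Mia1 also held Col2a1, as did 22 of 27 at E15.5, where 15 held Acan. Mia1 shares its strand and locus with the gene model Gm21983, which has no row of its own in the table. Per kb of exon sequence, with the caution that the labels do not say whether these counts scale with transcript length, the E15.5 levels ran from Col2a1 (78.2 CPM per kb) over Mia1 (47.4), Col9a3 (41.0), Col9a2 (37.1), Col11a1 (32.2), Col9a1 (29.8), Hapln1 (10.9), Matn1 (10.0) and Acan (6.56) to Matn4 (0.655).

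The number of the 10 genes held by a cell set E10.5 apart from the later stages. At E10.5, 72 of 119 cells held none, 37 held 1, 10 held 2 and none held more. At E12.5, 34 of 158 held none and 18 held 5 or more (11.4%, 6.89 to 17.4). At E15.5, 58 of 200 held none and 26 held 5 or more (13.0%, 8.67 to 18.5), so that the intervals of the later stages overlapped. Cells with the larger sets were rarer: 3 cells of E12.5, all of pool 6, and 16 of E15.5, from all 5 pools, held 7 or more. Those 16 cells carried 67.6% of all counts of the 10 genes at E15.5 and the 3 cells carried 18.8% at E12.5. In cells holding 5 or 6 of the genes, all 15 of E12.5 and all 10 of E15.5 held Col2a1, but Col9a1 was held by 14 of 15 and then 2 of 10. Acan was held by 0 of 15 and then 4 of 10. Of the 26 cells with 5 or more at E15.5, 5 had at least 3 markers of another cell class, against 0 of 18 at E12.5; their part in the result was not tested.

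**Figure D4:**
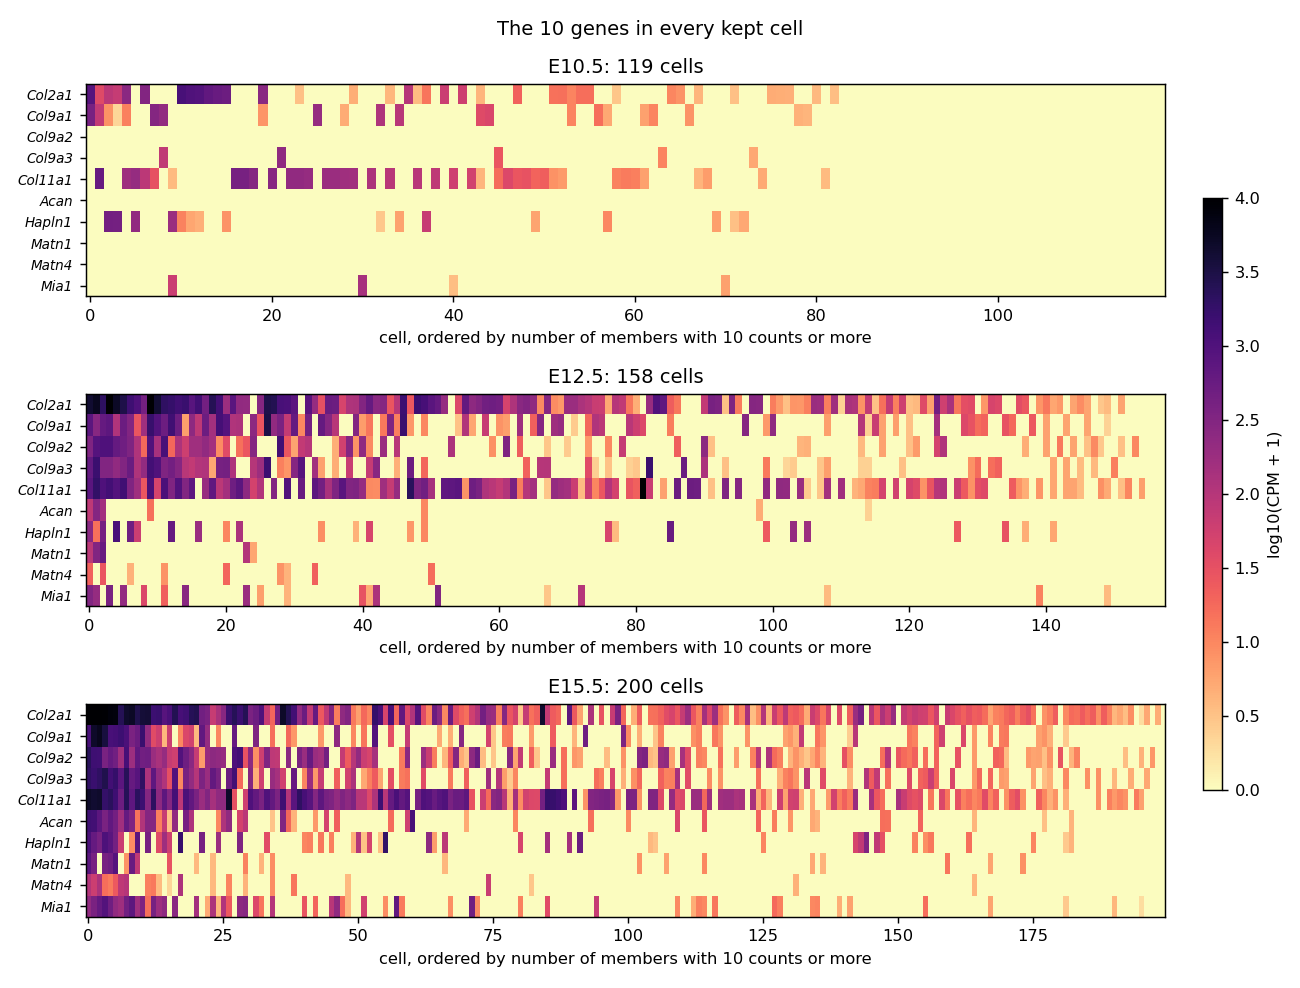
Every kept cell is a column and each of the 10 genes a row, in 3 panels by stage; colour is log10(CPM + 1), and cells are ordered from left by how many of the genes they hold at 10 counts or more. At E10.5 no column shows more than 2 genes at 10 counts, at E12.5 the collagen rows fill together with few Acan or Matn1 cells, and at E15.5 the leftmost 16 cells show 7 or more genes.

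Cells with Col2a1 at 1000 CPM or more, 24 of E12.5 and 31 of E15.5, were compared for the other 9 genes. Col2a1 itself was not matched between these sets: 11 of the 24 and 20 of the 31 stood at 2000 CPM or more, so the differences in the other genes are not at equal Col2a1. Col9a2 (66.7% and 71.0% of these cells), Col9a3 (70.8% and 71.0%) and Col11a1 (83.3% and 87.1%) were held by shares whose intervals overlap, such as 44.7% to 84.4% and 52.0% to 85.8% for Col9a2. Acan was held by 3 of 24 (interval 2.66% to 32.4%) and 18 of 31 (58.1%, 39.1 to 75.5), with levels of 26.0 and 250 CPM. Mia1 was held by 5 of 24 (20.8%, 7.13 to 42.2) and 17 of 31 (54.8%, 36.0 to 72.7), at 79.8 and 210 CPM. All 5 of those E12.5 cells were of pool 6 (156 CPM), the other 3 pools standing at 0 CPM, and the 1 cell of pool 12 stood at 14.6 CPM; without pool 6 no E12.5 cell of the set held Mia1. Col9a1 went the other way in share, 21 of 24 (87.5%, 67.6 to 97.3) against 17 of 31 (54.8%, 36.0 to 72.7), but not in level, at 483 and 763 CPM. The Acan intervals do not overlap, and those of Mia1 and Col9a1 overlap in part; cells of 1 sample are not replicates, so no test is given. By pool, Acan in these cells stood at 0, 1.26, 50.2 and 0 CPM at E12.5 (2, 6, 13 and 3 cells) and at 156, 564.5, 85.3, 206 and 293 CPM in E15.5 cells (11, 8, 7, 4 and 1 cells), without overlap. These cells also differed in other transcripts: Col1a1 was held by 10 of 24 and 30 of 31, at 194 and 3170 CPM, and Gdf5, a joint gene, by 5 and 1.

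**Figure D5:**
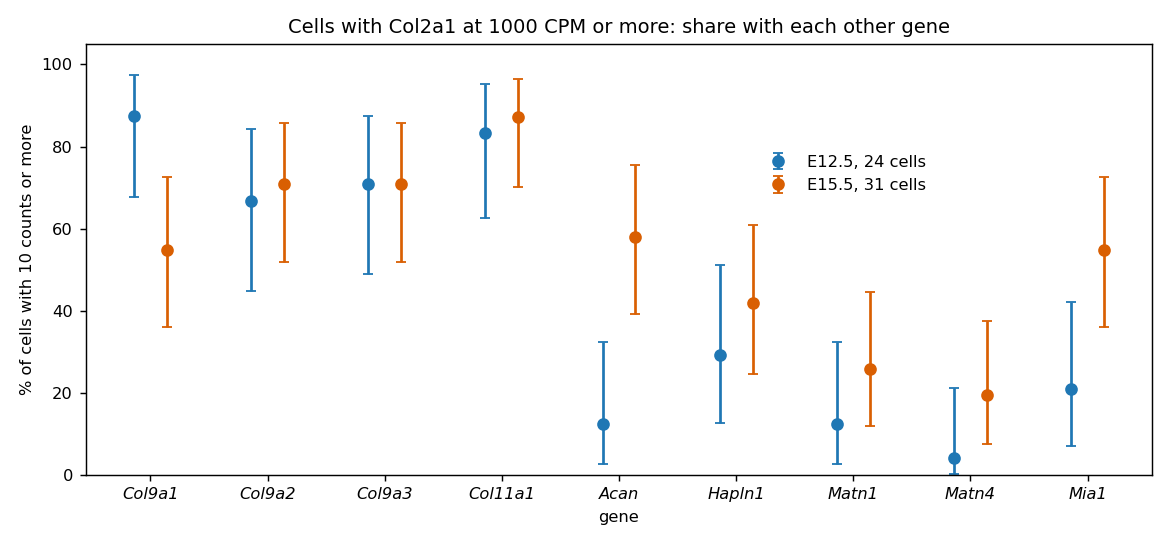
Percentage of cells with Col2a1 at 1000 CPM or more (24 cells at E12.5, 31 at E15.5) that held each of the other 9 genes at 10 counts or more; bars are exact 95% binomial intervals. Acan went from 3 to 18 cells and Col9a1 from 87.5% to 54.8%, while Col9a2 (66.7% and 71.0%) and Col9a3 (70.8% and 71.0%) lie side by side.

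Sox9, the regulator that starts the chondrocyte program, stood at 58.7 CPM in E10.5 cells, 236 CPM at E12.5 (4.02-fold higher, called) and 143 CPM in E15.5 cells. Of 13 regulators tested, 2 were called higher at E12.5 than at E10.5 (Sox9 and Foxc1), none in E15.5 than in E12.5 cells and 4 in E15.5 than in E10.5 cells (Sox9, Runx3, Fgfr3 and Foxc1), where 7.76%, 2.99% and 11.2% of all genes tested were. Counts this small lie near those shares in the first and second comparison. Sox5 and Sox6, which act with Sox9, stood at 56.9 and 14.5 CPM, then 110 and 46.1 CPM, then 50.8 and 28.0 CPM, with no call. At E12.5 the 86 cells holding Sox9, of 158 kept, carried all counts of Acan, Matn1 and Matn4 and 99.2% of those of Mia1. They carried 80.8% of Col2a1, 74.4% of Col11a1 and 73.6% of Col9a1. Acan, Matn1 and Matn4 were held by only 3, 4 and 1 of them, all of pool 6. These shares were not set against the share of all counts that such cells carried. At E15.5 the 64 such cells, of 200, carried 82.7% of Acan, 99.0% of Matn1, 75.6% of Matn4, 82.1% of Mia1, 86.5% of Col2a1 and 68.0% of Col11a1. At E10.5, by contrast, 36 cells held Sox9 and carried 58.8% of Col2a1 counts but 18.7% of those of Col11a1. In numbers of cells the 2 genes were close there: 7 of the 36 held Col2a1 (19.4%) and 6 held Col11a1 (16.7%).

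Other genes of cartilage matrix were called at every step. Of 20 tested, 7 were called higher at E12.5 than at E10.5, 8 in E15.5 than in E12.5 cells and 13 in E15.5 than in E10.5 cells, with 1 lower (Frzb, a Wnt antagonist, at 122 and 8.47 CPM). Of all genes tested, 7.76%, 2.99% and 11.2% were called higher in these comparisons and 5.01% lower in the last. Their median log2 ratios were 0.66, 1.59 and 1.90, against 0.17, -0.04 and 0.15 over all genes tested. The 8 of the second comparison were Comp, Fmod, Lect1, Scrg1, Cytl1, Hspg2, Bgn and Itm2a. Lect1, the chondromodulin gene, stood at 14.5 CPM at E12.5 and 103 CPM in E15.5 cells (7.08-fold), and Cytl1, a secreted protein of chondrocytes, at 9.15 and 131 CPM (14.3-fold). Fmod and Bgn, small proteoglycans that tendon and connective tissue also make, were 10.1-fold and 7.23-fold higher. Comp, which binds collagen in cartilage and tendon, stood at 0.391 and 11.1 CPM, and 98.2% of its E15.5 counts lay in the 31 cells with high Col2a1.

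Genes that modify collagen and sulfated proteoglycans made up the next list. Of 19 tested, 7 were higher at E12.5 than at E10.5 (P4ha3, Plod2, Papss1, Papss2, Chst3, Csgalnact1 and Has2), 2 in E15.5 than in E12.5 cells (P4ha3 and Adamts2) and 6 in E15.5 than in E10.5 cells, against the same 7.76%, 2.99% and 11.2% of all genes. The list's median log2 ratios were 1.00, 0.09 and 1.24, against 0.17, -0.04 and 0.15. Papss2, which supplies the sulfate donor for proteoglycans, stood at 1.57 CPM in E10.5 cells, 75.1 CPM at E12.5 and 103 CPM in E15.5 cells. Csgalnact1, which starts chondroitin chains, stood at 1.07, 19.8 and 54.5 CPM. Of 9 genes of hypertrophic cartilage and bone 2 had counts in enough cells to be tested, and 1, Runx2, was called higher in E15.5 than in E10.5 cells, at 42.4 against 8.89 CPM, a comparison in which 11.2% of all genes were. Col10a1, the collagen of hypertrophic cartilage, had 0, 110 and 14 counts, and 1 of the 24 cells with high Col2a1 of E12.5 and 0 of the 31 of E15.5 held it.

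At the later stages the genes whose levels ran most like the sum of the 10 across cells included cartilage regulators; at E10.5 the 8 largest r, from 0.335 to 0.407 over 119 cells, belonged to none of the listed regulators. As a description over 158 cells of E12.5, with log2(CPM + 10) and Pearson's r, these were Fibin (0.44), Wwp2 (0.43), Sox9 (0.40), Papss2 (0.39), Sox6 (0.39), Sox5 (0.37), Tcfl5 (0.34) and Sema3d (0.33). Over 200 cells of E15.5 they were Sox9 (0.56), Susd5 (0.53), Cytl1 (0.46), Tcfl5 (0.46), Cthrc1 (0.46), Papss2 (0.45), Lect1 (0.45) and Wwp2 (0.43). Sox9, Wwp2, Papss2 and Tcfl5 stood in both lists, and Tcfl5 overlaps Col9a3 as given above. The points share library pools and chemistry, and the summed level had r of -0.076 and -0.045 with the log2 of a cell's total count.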

How the data were processed

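The deposited table holds counts of reads per gene symbol for 480 cells, made by the authors with Bowtie2 and featureCounts on mm10, per the submitters' processing notes; no source used here gives versions, annotation, strand setting or use of molecular identifiers. Another 1120 samples were not analysed here. Libraries were made with the Fluidigm C1 and Nextera XT, per the labels' protocols. Identical repeated entries of a symbol were used once and differing ones added. Cells with at least 1000 detected genes were kept (477 of 480). Counts were summed per stage and pool and divided by total counts; the 13125 genes seen in 10 or more kept cells were compared by the rule given in the text, with no test, since each stage is 1 sample. The members and the gene lists were chosen with earlier results of these data known, and the direction of a list is no independent evidence. From each list the genes called, and up to 4 with the highest CPM, could be named; Sox5, Sox6, Col10a1 and the marker genes Col1a1, Dcn and Gdf5 were named after their values were seen. Genes like the members were the 8 with the largest r. The call rule was also run on simulated cells without pool effects or cell types, so that run does not speak to differences between pools. Older symbols in the table stood for Cnmd (Lect1), Snorc and Hbb-bs. Gene positions and exon lengths are from GENCODE M21 (GRCm38) and promoters from RefSeq. Doublets were not called; cells with at least 3 markers of another class at 10 counts or more were counted instead (8, 16 and 53 cells). Alternatives were other added CPM values, scalings (edgeR 4.0.16 for trimmed mean factors), cell filters, thinning depths and each pool left out. Python 3.11.15, numpy 2.4.6, pandas 2.3.3 and scipy 1.17.1 were used.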

Additional observations from a re-analysis of the deposited data

How the results depend on the processing

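Each stage is 1 litter's pooled limbs, so the 12 pools give technical spread only, and depth limits genes at few counts such as Matn4. No paired analysis was possible because no result comes from a test. The 5 members higher between E10.5 and E12.5 stayed at 5 to 6 as single pools were left out. Leave-one-out counts ran from 0 to 3 between E12.5 and E15.5 and from 5 to 8 between E10.5 and E15.5; the fewer pools to overlap after removal are part of how such calls arise. For onset they ran from 2 to 4 (E10.5), 3 to 5 (E12.5), 2 to 3 (E15.5) and 0 to 1 (never reached). Thinning to 20000 counts left 1 gene unreached. Asking for 3 thinned counts put 1 gene at E15.5 and left 2 unreached. An onset share of 2% put 0 at E15.5 and one of 10% left 2 unreached. Hapln1 moved to E12.5 with 20000 counts (4.24% at E10.5), with 3 thinned counts (3.48%) and at the 10% share. At the 2% share Col9a3 and Mia1 were reached at E10.5, each in 2.61% of cells. The value of Col9a1 counts per Col9a2 count, E15.5 over E12.5, was 0.659; it was 0.0111 by the median cell, 0.382 without the highest cell of each pool and 0.601 without cells holding markers of another class, an alternative added after seeing the data; single pools left out gave 0.55 to 0.758. The value of Col11a1 counts per Col2a1 count, E15.5 over E12.5, was 1.21; it was 4.29, 1.30 and 1.49 in the same order, and 1.00 to 1.43. Cells past a Col2a1 cut of 500 CPM numbered 7 at E10.5; past 2000 CPM there were 0, 11 and 20 by stage. The Hapln1 log2 ratio between E10.5 and E12.5 was -0.02, -0.06, -0.17 and -0.06 without pools 1, 2, 5 and 6, with a leave-one-out range of -0.17 to 1.20. The Col9a1 log2 ratio between E12.5 and E15.5 was -0.03 by the mean of the cells' own CPM and -0.13 without the highest cells. The cause of these shifts was not tested. Of the remaining log2 ratios, 263 kept direction and call and 5 gained a call under other settings, and 227 and 9 did so with a pool left out.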
